A study of Mus musculus with 10 samples.

Results

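The Krüppel-like factors are zinc finger transcription factors that bind CACCC boxes and GC-rich sequence through 3 fingers at the end of the protein, and 10 of their genes were examined here, namely Klf2, Klf3, Klf4, Klf5, Klf6, Klf7, Klf9, Klf10, Klf13 and Klf14. They were taken by symbol from the GENCODE annotation of mm9, which holds 22380 protein-coding genes, and all 10 symbols were found. For each gene, the bases covered by H3K27me3 peaks were counted in a window from 5 kb upstream of the transcription start site (TSS, the 5′ end of the gene) to the end of the gene. The 5 lines are mouse B-cell lymphoma cells, namely a parental line and 4 resistant ones derived from it by raising the dose of the alkylating agent mafosfamide over 34 days. R100 was taken at 100 nM, R500 at 500 nM, R1000 at 1000 nM and R4000 at 4000 nM. All 5 lines share the strain C57BL/6J, the Eμ-Myc genotype, in which an immunoglobulin heavy chain enhancer restricts Myc expression to B-lineage cells, and the Cdkn2a-/- genotype. The resistant lines are sub-clones of 1 parental line, and the study grew all lines without mafosfamide for ChIP-seq. Each line has 1 peak list, with positions and no height, score or read count, so replicate error is unknown and differences between lines could not be tested. In such bulk lists, a mark on fewer cells and less of the mark per cell cannot be told apart.

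H3K27me3 is placed by Polycomb repressive complex 2, which acts mostly at CpG-rich promoters of genes that a cell type keeps silent. The Krüppel-like factors fall into groups by their partners. Klf2, Klf4, Klf5, Klf6 and Klf7 act largely as activators, Klf3 recruits the corepressor CtBP, and Klf9, Klf10, Klf13 and Klf14 recruit the corepressor Sin3a. In B cells, Klf2 is known for quiescence and homing and Klf4 for restraint of proliferation.

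The lists differ in length, which bears on every comparison between lines. The distinct peaks covered 1.63 Mb for the parental line, 5.04 for R100, 4.53 for R500, 1.61 for R1000 and 1.07 for R4000. The read depth behind them is unknown. Values are therefore given both in bp and, where a direction is drawn, in bp per Mb of list, which divides them by the length covered in the whole list.

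Coverage was found at 6 of the 10 genes and was concentrated in 3 of them. Klf3, Klf4 and Klf14 had covered bases in every line. Klf2 had them in R100, R500 and R1000, and Klf7 and Klf13 in R500 alone. Klf5, Klf6, Klf9 and Klf10 had none in any line. Of all protein-coding genes, 42.8% had a covered base in at least 1 line and 6.92% in every line.

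**Figure D1:**
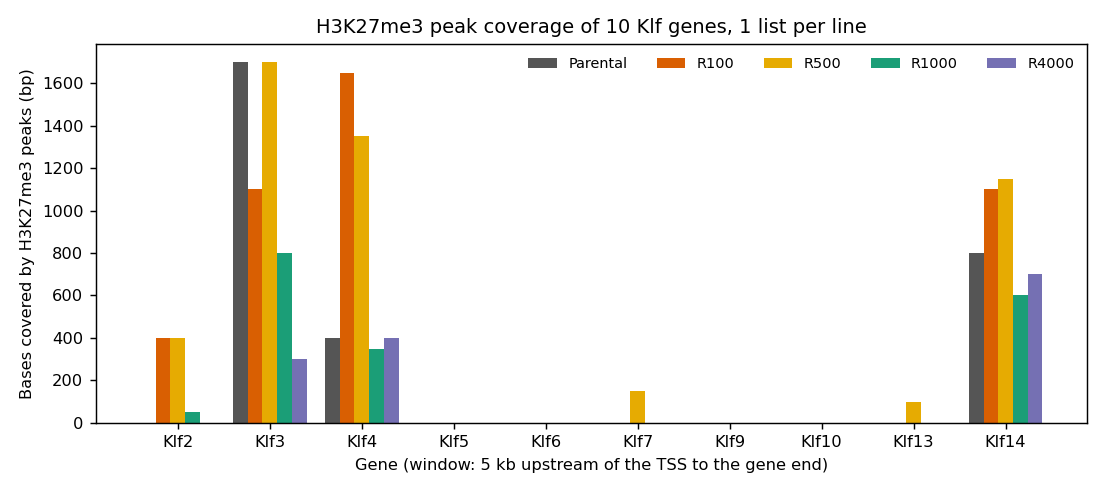
Bases covered by H3K27me3 peaks (y axis, bp) in the window of each of the 10 genes (x axis), with 1 bar per line from its single peak list and therefore no error bars. Klf3, Klf4 and Klf14 have bars in all 5 lines, up to 1700 bp, and Klf5, Klf6, Klf9 and Klf10 have none.

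The stretches of sequence at which the peaks of different lines met are shown for 4 genes, with 1 promoter that no peak covered beside them. They were read from the NCBIM37 (mm9) genome on the strand of the gene, outside annotated untranslated regions. The Klf14 stretch, chr6:30909001-30909200 on the minus strand, lies upstream of the gene at positions -210 to -11 from the TSS and was the only stretch of any of the 10 genes that was covered in all 5 lines. The Klf9 stretch, chr19:23215506-23215705 on the plus strand, lies at the same positions and is shown as a promoter with no peak. The Klf3 stretch, chr5:65193751-65194000 on the plus strand, lies upstream at positions -877 to -628. It was covered over all its 250 bp in the parental line, R100 and R500, over 50 bp in R1000 and over 100 bp in R4000. The Klf4 stretch, chr4:55544501-55544600 on the minus strand, is coding sequence in the second exon of the main transcript but for its last base, which is intronic, and was covered in full in every line but R1000, where 0 bp were covered. The Klf2 stretch, chr8:74844201-74844300 on the plus strand, lies in the last intron, with 50 bp in peaks of R100, 100 in those of R500 and 50 in those of R1000. Capitals mark CpG dinucleotides.
Klf14: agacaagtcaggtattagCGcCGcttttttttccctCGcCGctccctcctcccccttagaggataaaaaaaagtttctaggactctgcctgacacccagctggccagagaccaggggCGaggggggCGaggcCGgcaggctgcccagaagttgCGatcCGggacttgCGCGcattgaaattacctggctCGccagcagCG
Klf9: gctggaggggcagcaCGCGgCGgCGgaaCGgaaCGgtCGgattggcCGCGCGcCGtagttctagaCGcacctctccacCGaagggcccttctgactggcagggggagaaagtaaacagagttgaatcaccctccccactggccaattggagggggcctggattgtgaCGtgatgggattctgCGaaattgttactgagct
Klf3: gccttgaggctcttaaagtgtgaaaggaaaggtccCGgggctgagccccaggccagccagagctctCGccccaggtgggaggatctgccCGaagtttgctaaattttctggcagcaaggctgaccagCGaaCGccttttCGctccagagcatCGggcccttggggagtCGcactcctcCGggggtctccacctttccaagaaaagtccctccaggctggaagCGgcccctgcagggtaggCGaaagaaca
Klf4: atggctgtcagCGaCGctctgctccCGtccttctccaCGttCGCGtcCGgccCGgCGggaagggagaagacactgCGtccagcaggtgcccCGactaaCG
Klf2: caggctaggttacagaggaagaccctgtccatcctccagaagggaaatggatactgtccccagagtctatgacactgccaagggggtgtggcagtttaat
The Klf14 stretch holds 13 CpG and the uncovered Klf9 stretch 15. The 100 bp of Klf4 hold 12 CpG, whereas the 100 bp of Klf2 hold 0. The Klf2 stretch does not stand for all the coverage of that gene, whose covered bases held 7.43 CpG per 100 bp. Over all protein-coding genes, the median at positions -210 to -11 was 7 CpG. The CACCC box, searched as CACCC on both strands, occurred there in 5 of the 10 genes, among them Klf14 and Klf9, against 45.6% of protein-coding genes.

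Klf3, the gene of the CtBP-binding repressor, lies on chromosome 5 from 65194628 to 65221368 on the plus strand. It was covered over 1700 bp for the parental line, 1100 for R100, 1700 for R500, 800 for R1000 and 300 for R4000. It had more covered bases than any other of the 10 genes in the parental line. R500 had as many as the parental line, and R4000 had the fewest. Its window is 31741 bp long, and the covered share of it was 5.36% for the parental line, 3.47% for R100, 5.36% for R500, 2.52% for R1000 and 0.945% for R4000. In the parental line, 98.6% of protein-coding genes had a smaller covered share. The coverage was made of small peaks that flanked the TSS on both sides and left it bare. The parental line had 7 peaks between positions -1777 and 3372, the widest of 500 bp, and R4000 had 4 peaks of 50 or 100 bp between positions -877 and 3272. The span downstream of the TSS in R4000 was thus close to that in the parental line, while the peaks within it were narrower. None of the covered bases lay in coding sequence, and in the parental line 650 bp were upstream of the TSS and 1050 bp in introns. Relative to the length of each list, Klf3 was covered over 1042 bp per Mb for the parental line, 218 for R100, 375 for R500, 496 for R1000 and 279 for R4000, so that the parental line was highest on this scale and tied with R500 in bp. R500 lay above the parental line with peaks within 1000 bp joined (4050 against 3450 bp), and below it in the upstream 5 kb alone (450 against 650 bp).

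The R500 line covered as many bases of Klf3 as the parental line, but only part of them were the same. The overlap was 900 bp, which is 52.9% of either line's covered bases. R100 shared 450 bp with the parental line, 26.5% of the parental and 40.9% of its own bases. All 300 bp of R4000 lay within parental peaks, and R1000 and R4000 shared 0 bp of their 800 and 300 bp.

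Klf14, an imprinted gene of 1 exon whose protein recruits Sin3a, lies on chromosome 6 from 30906021 to 30908990 on the minus strand. Its window of 7970 bp was covered over 800 bp for the parental line, 1100 for R100, 1150 for R500, 600 for R1000 and 700 for R4000. R100 and R500 lay above the parental line and R1000 and R4000 below it, and no line differed from the parental line by 2 times. Both statements hold for this window with all peaks and changed with other peaks or windows. The covered share of the window was 10% for the parental line, 13.8% for R100, 14.4% for R500, 7.53% for R1000 and 8.78% for R4000. In R4000, 99.4% of protein-coding genes had a smaller share. Per Mb of list the order was different, with 490 bp for the parental line, 218 for R100, 254 for R500, 372 for R1000 and 652 for R4000.

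Klf14 was the only one of the 10 genes whose TSS, taken as the 5′ end of the gene, lay in a peak. A peak of 500 bp from position -360 to 139 was called with the same ends in R100 and R500. In R1000 a peak reached from -310 to 39 and in R4000 from -460 to 39, while the parental line had a peak of 200 bp from -210 to -11 that stopped short of the TSS. Of all protein-coding genes, 0.523% had the TSS in a peak in the parental line, 2.75% for R100, 2.19% for R500, 0.795% for R1000 and 0.518% for R4000. The region around Klf14 also held peaks. Within 50 kb on both sides of its window, 2000 bp were covered in the parental line, 1850 bp for R100, 2650 for R500, 1050 for R1000 and 1200 for R4000. At the other 9 genes, the flanks of 50 kb held at most 200 bp in any line.

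**Figure D2:**
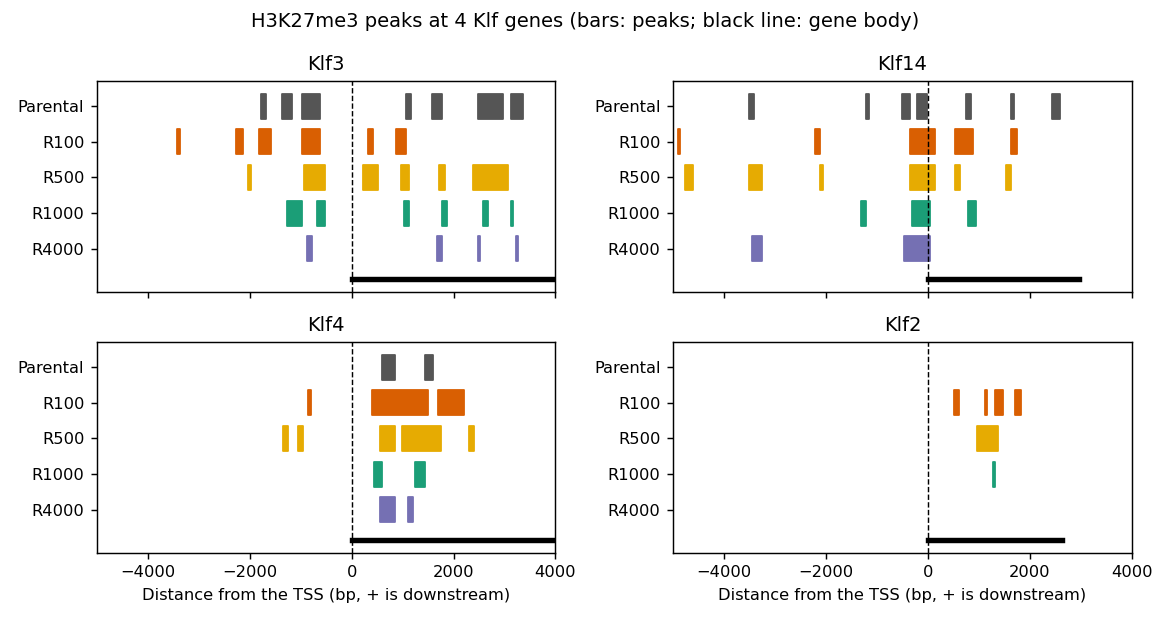
Peaks (coloured bars) of each line by distance from the TSS in bp (x axis, positive downstream) at Klf3, Klf14, Klf4 and Klf2, with the TSS as a dashed line and the gene body as a black line that is cut at 4000 bp. Peaks flank the TSS of Klf3 on both sides, lie across that of Klf14 in the 4 resistant lines, and lie mostly downstream of that of Klf4 and wholly downstream of that of Klf2.

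The other genes of the Sin3a-binding group had little or no coverage. Klf13, known in lymphocytes for the chemokine gene Ccl5, lies on chromosome 7 and was covered in R500 alone, by 2 peaks of 50 bp each that start at positions 901 and 1701. Klf9, a gene induced by glucocorticoid and thyroid hormone, had 0 bp in every line, although R100 had a peak just beyond the window, 5.37 kb from the TSS. Klf10, an early gene of the TGF-β response, also had 0 bp in every line, and the parental line had a peak 5.89 kb from its TSS. Both of these peaks lay within 1 kb of the window edge, so the 0 of each gene in that line depends on the window of 5 kb.

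Klf4, a tumour suppressor in B cells and a pluripotency factor, lies on chromosome 4 from 55540013 to 55545347 on the minus strand. It was covered over 400 bp for the parental line, 1650 for R100, 1350 for R500, 350 for R1000 and 400 for R4000. R100 and R500 stood apart from the other 3 lines, which lay within 50 bp of each other. The ratio to the parental line was 4.12 for R100, 3.38 for R500, 0.875 for R1000 and 1 for R4000. In percent of the window of 10335 bp, the values were 3.87% for the parental line, 16.0% for R100, 13.1% for R500, 3.39% for R1000 and 3.87% for R4000. Klf4 in R100 had the largest covered share of any of the 10 genes, and 98.5% of protein-coding genes had a smaller share there. Per Mb of list the ratios to the parental line were 1.34 for R100, 1.22 for R500, 0.886 for R1000 and 1.52 for R4000, so R100 and R500 no longer stood apart.

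The peaks of Klf4 lay mostly downstream of the TSS, in exons and introns of the first part of the gene. Klf4 has 4 annotated transcript starts, and a start downstream of this TSS lay in a peak in every line but R1000. The widest peak at any of the 10 genes was here, of 1100 bp in R100 from position 397 to 1496, where the parental line had peaks of 250 and 150 bp. Coding sequence made up 231 bp of the parental coverage, 631 bp in R100 and 481 bp in R500, and introns 142, 742 and 592 bp. The peaks of the parental line recurred in part. R500 covered all 400 parental bp and R100 300 of them, while R1000 covered 0 and R4000 250. Read from the TSS, each of the R1000 peaks ended where a parental one began, and all 350 bp of them were covered in R100.

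Klf2, the factor of lymphocyte quiescence, lies on chromosome 8 from 74842932 to 74845555 on the plus strand. It was covered over 0 bp for the parental line, 400 for R100, 400 for R500, 50 for R1000 and 0 for R4000. In the parental line the nearest peak lay 684 kb from its TSS and in R4000 656 kb, and there was no peak in the flanks of 50 kb in any line. R100 reached 400 bp with 4 peaks of 50 to 150 bp and R500 with 1 peak of 400 bp. The overlap was 100 bp, which is 25.0% of either line's bases. All of the coverage lay in the gene body, from position 519 to 1818, with 250 bp of coding sequence in R100 and 241 bp in R500.

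The remaining activators were mostly bare. Klf7, the gene of a factor of neuronal development that lies on chromosome 1, was covered over 150 bp in R500, by peaks of 100 and 50 bp at positions 1206 and 206, and over 0 bp in the other 4 lines. Klf5, which promotes proliferation of epithelial cells, lies on chromosome 14. It had 0 bp in every line and no peak within 50 kb of its window, the nearest peak being 199 kb from the TSS in R1000 and 2310 kb in the parental line. Klf6, a gene of the injury response on chromosome 13, likewise had 0 bp in every line, with the nearest peak 130 kb from the TSS in R1000 and 2382 kb in the parental line.

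To set the genes beside the background, a gene was counted as covered in a line with at least 150 bp, or 3 bins of 50 bp. This held for 3 of the 10 genes in the parental line, where it held for 7.67% of protein-coding genes. In R100 it held for 4 genes (background 21.7%), in R500 for 5 (17.0%), in R1000 for 3 (8.86%) and in R4000 for 3 (7.05%). Klf3, Klf4 and Klf14 were covered by this rule in every line, Klf2 in R100 and R500, and Klf7 in R500. The median of the 10 genes was 0 bp in every line but R500, where it was 125 bp, and the median of all protein-coding genes was 0 bp in every line.

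A gene was counted as gained in a resistant line with at least 2 times the parental covered bases and at least 150 bp more, and as lost with the reverse. In R100, Klf2 and Klf4 were gained, which is 2 of 10 genes against 18.9% of protein-coding genes. In R500, Klf2, Klf4 and Klf7 were gained, which is 3 of 10 against 14.0%. The share in R100 was close to the background, and that in R500 rests on 3 genes. In R1000 and R4000, 0 genes were gained, against 3.58% and 2.44% of protein-coding genes. No gene was lost in R100 or R500, where the background was 0.429% and 0.474%. Klf3 was lost in R1000 (background 2.19%) and in R4000 (3.85%). With covered bases scaled to the length of each list, the gains of Klf4 and Klf7 were no longer counted while those of Klf2 were, Klf3 was counted as lost in all 4 resistant lines, and Klf14 was lost in R100. When only the 6820 widest peaks per list were kept, the reverse held in R100, where Klf4 was gained and Klf2 had 0 bp, while both were gained in R500. Klf2 was also not gained with peaks at least 500 bp wide or a threshold of 500 bp, where Klf4 was gained in R100 and R500.

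From one resistant line to the next, the largest number of genes moved between R500 and R1000, counted in covered bp without scaling to list length. From R100 to R500, Klf7 was gained (background 2.60%) and 0 genes were lost (7.96%). From R500 to R1000, Klf2, Klf3, Klf4 and Klf7 were lost, 4 of 10 genes against 13.1% of protein-coding genes, and 0 were gained (0.402%). The list itself shortened from 4.53 Mb in R500 to 1.61 Mb in R1000. Per Mb of list, Klf3 was higher in R1000 than in R500, at 496 against 375 bp. The ratio of Klf4 to the parental line on that scale fell from 1.22 to 0.886, by less than 2 times. Klf2 and Klf7 were lower in R1000 on that scale as well. From R1000 to R4000, Klf3 was lost (4.28%) and 0 genes were gained (1.59%). Per Mb of list, Klf3 fell between these lines from 496 to 279 bp, by less than 2 times.

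Summed over the 10 genes, 2900 bp were covered in the parental line, 4250 bp for R100, 4850 for R500, 1800 for R1000 and 1400 for R4000. The ratio to the parental line was 1.47 in R100 and 1.67 in R500, against 3.09 and 2.78 for the covered length of the whole lists. In R1000 and R4000 it was 0.621 and 0.483, against 0.988 and 0.658. In bp per Mb of list the sum was 1777 for the parental line, 844 for R100, 1070 for R500, 1116 for R1000 and 1304 for R4000, so that R100 and R500 lay above the parental line in bp and below it per Mb of list. Klf3 alone held 1700 of the 2900 parental bp.

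**Figure D3:**
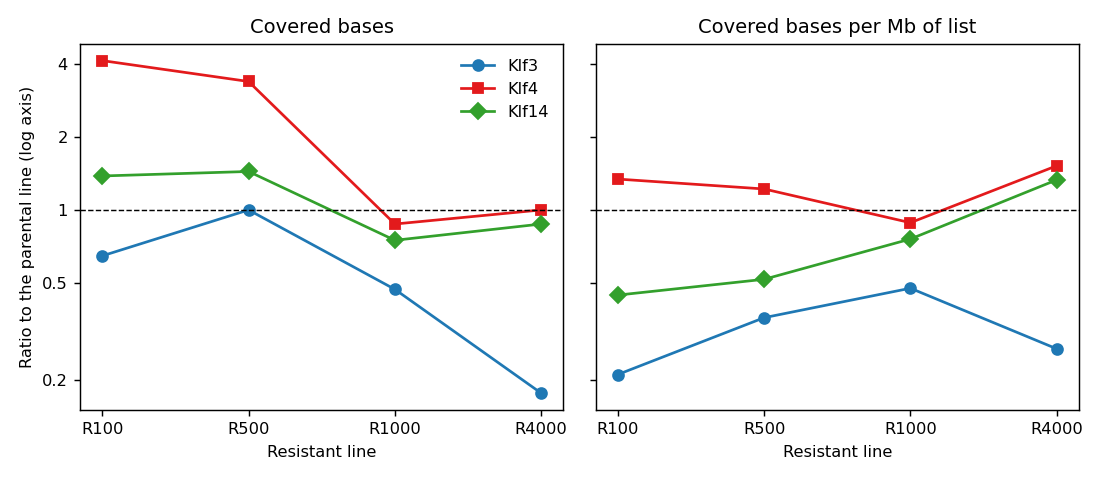
Ratio to the parental line (y axis, log scale) in each resistant line (x axis) for Klf3, Klf4 and Klf14, in covered bases (left) and in covered bases per Mb of list (right), with 1 list per line and no error bars. The dashed line marks a ratio of 1; Klf4 reaches 4.12 in R100 on the left and 1.34 on the right, and Klf3 does not exceed 1 in any line.

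Few bases were covered in more lines than 2. At Klf3, 3200 bp were covered in any line, of which 1550 bp were covered in 1 line and 0 bp in all 5. At Klf4, 2150 bp were covered in any line, 1100 bp of them in 1 line and 0 bp in all 5. At Klf14 these values were 2150, 1000 and 200 bp. The genes were thus present in every list while the positions of the peaks within them differed between lists. The 76 peaks of the 5 lists at the 10 genes had a median width of 125 bp, 15 of them were 50 bp wide and 8 were at least 500 bp wide.

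**Figure D4:**
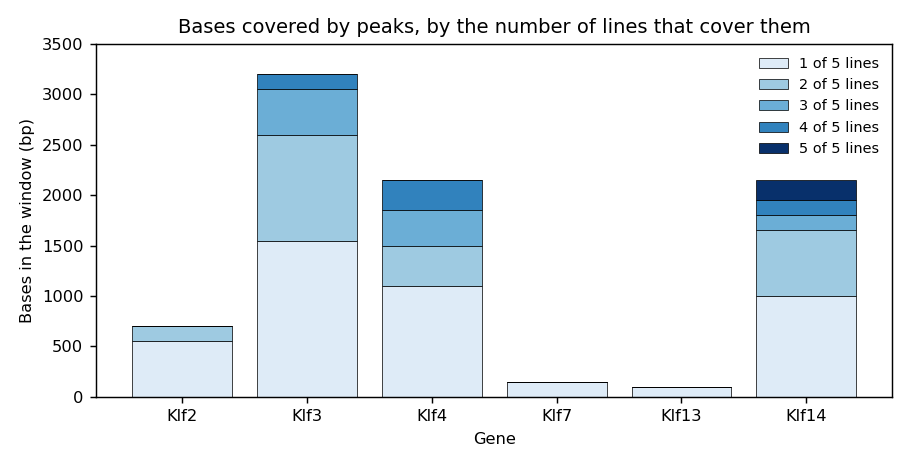
Bases in the window (y axis, bp) of the 6 genes with any coverage (x axis), stacked by the number of lines whose peaks cover them. Light segments, covered in 1 line, are the largest at each gene, and the darkest segment, covered in all 5 lines, appears at Klf14 alone with 200 bp.

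The coverage lay close to the TSS. Within 2 kb of it lay 65.5% of the covered bases of the 10 genes in the parental line, 87.2% for R100, 73.7% for R500, 91.7% for R1000 and 78.6% for R4000. For all protein-coding genes these shares were 53.8%, 60.8%, 59.2%, 63.7% and 66.5%. These shares were not matched for window length, which bears on them, and the windows of Klf2, Klf14 and Klf4 span only 7624, 7970 and 10335 bp. The farthest covered base downstream of a TSS lay at position 3372, in Klf3, although the windows of Klf7 and Klf13 reach over 97836 and 57565 bp. Coding exons held 331, 1231, 895, 150 and 126 bp of the coverage in the order of the lines. Other annotated genes overlapped the windows of Klf7 and Klf9 alone, and none of the overlap was covered.

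All 10 genes have CpG-rich starts, whether covered or not. Within 1 kb of the TSS, the ratio of observed to expected CpG was between 0.711 at Klf7 and 0.964 at Klf9, and the median over protein-coding genes was 0.468. The uncovered Klf9 and the covered Klf14 had nearly the same ratio, 0.964 and 0.958, and 99.3% and 99.2% of protein-coding genes lay below them. Klf5, uncovered, and Klf4, covered, had 0.866 and 0.861. Of the 3992 protein-coding genes at or above the Klf7 ratio, 65.7% had a covered base in at least 1 line and 12.2% in every line. Inside the windows, CpG was denser in the covered bases, with 3.34 per 100 bp at Klf3, 5.91 at Klf4 and 4.23 at Klf14. The bases that no line covered held 2.13, 3.15 and 2.11. At Klf2 the values were 7.43 and 2.79, and at Klf7 and Klf13, with few covered bases, 6.00 against 1.06 and 6.00 against 1.68. Covered and uncovered bases were not matched for distance from the TSS, near which the coverage lay.

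**Figure D5:**
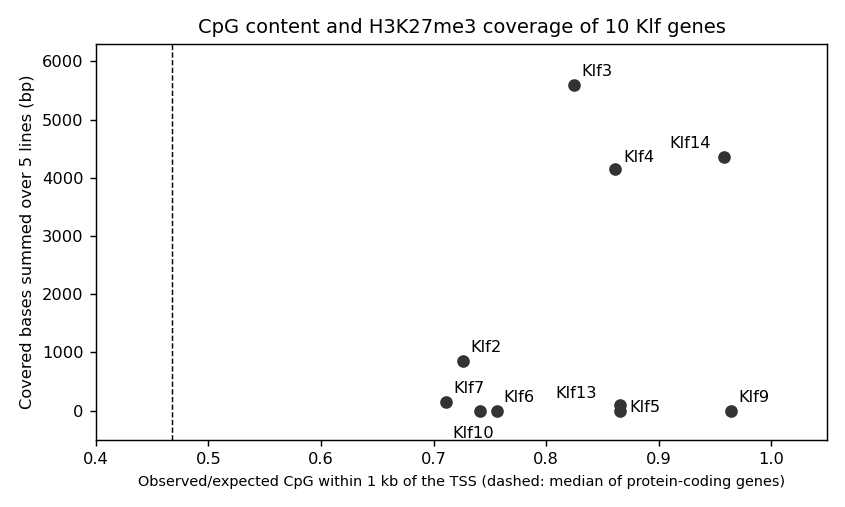
Covered bases summed over the 5 lines (y axis, bp) against the ratio of observed to expected CpG within 1 kb of the TSS (x axis), with 1 point per gene and the median of protein-coding genes, 0.468, as a dashed line. All 10 genes lie right of the line, and the uncovered Klf9 lies beside Klf14, which has 4350 bp.

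The other genes of the family were looked up in the same way, as 7 further Klf genes and the 9 genes Sp1 to Sp9, whose zinc fingers are closely related. Of these 16 genes, 3 had at least 150 bp for the parental line (background 7.67%), 6 for R100 (21.7%) and 5 for R500 (17.0%). The number was 4 for R1000 (8.86%) and 2 for R4000 (7.05%). The covered ones were Sp genes of development, apart from Klf15 with 150 bp in R100. Sp9, a factor of limb and forebrain development, had the most, with 5500 bp for the parental line, 7400 for R100, 8100 for R500, 5950 for R1000 and 5000 for R4000. Sp6, a factor of tooth and skin, had 1600, 3100, 3293, 2150 and 1350 bp in the same order, and Sp7, the osteoblast factor, 600, 1550, 1850, 200 and 100 bp. Per length, Sp9 had 30.9% of its window covered in the parental line, against 10% for Klf14. Of the 16 genes, 4 were gained for R100 (background 18.9%), 4 for R500 (14.0%), 1 for R1000 (3.58%) and 0 for R4000 (2.44%). In R1000 1 was lost (2.19%) and in R4000 1 (3.85%).

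A list of 15 regulators, partners and targets of Krüppel-like factors was described as well. At least 150 bp were covered at 2 of them in the parental line (background 7.67%), 3 for R100 (21.7%) and 4 for R500 (17.0%). The number was 3 for R1000 (8.86%) and 2 for R4000 (7.05%). Ctbp2, a corepressor partner of Klf3, had the most, with 100, 2250, 2900, 500 and 900 bp in the order of the lines. Cdkn1a, the p21 cell cycle inhibitor and a target of Klf4, had 500, 1500, 1600, 800 and 1100 bp. Per length Cdkn1a had more than Ctbp2, with 10.2% of its window of 14744 bp covered in R100, against 1.59% of 141792 bp. Mef2d, of the MEF2 family that induces Klf2 and Klf4, had 250, 900, 600, 150 and 100 bp. The number gained was 3 for R100 (background 18.9%), 3 for R500 (14.0%), 1 for R1000 (3.58%) and 2 for R4000 (2.44%), and 1 was lost in R4000 (3.85%).

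The protein-coding genes most like Klf3, Klf14 and Klf4 were found by the smallest sum over the 5 lines of absolute differences in percent of the window covered. For Klf3 they were Akt1, a kinase of survival signalling, with a sum of 3.17 percentage points, Slc6a20a, an amino acid transporter (3.30), and Ripply3, a transcriptional corepressor (3.74). For Klf14 they were Shisa3 (5.63), Mest, an imprinted gene that also lies on chromosome 6 (6.93), and Gcgr, the glucagon receptor (7.83). For Klf4 they were Ngfr, a neurotrophin receptor (2.57), Nrbp2 (4.09) and Pcgf2, a Polycomb group gene (5.42). Ngfr was covered over 4.39% of its window in the parental line, 16.5% for R100, 11.9% for R500, 3.14% for R1000 and 3.97% for R4000.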

How the data were processed

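H3K27me3 ChIP-seq lists of 5 lines were used. Per the study's methods, the authors sequenced immunoprecipitated and input libraries in 50-bp reads and called peaks in tiled windows with Poisson statistics. The submitters' processing notes name Bowtie and mm9. The deposited values are start and end positions in bp. The study's methods give a p threshold over at least 3 bins of 50 bp for its promoter calls, from which the 150 bp used here follow. Whether the lists used that p, and whether they pool the study's replicates, is not given in the sources used here. RRBS was not analysed here. R100 and R500 list each peak 2 times (50360 and 43776 entries), and distinct peaks were used. All peaks fell inside the NCBIM37 chromosomes.

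The software was Python 3.11.15, pysam 0.24.0 for sequence, numpy 2.4.6 for covered bases and matplotlib 3.10.9 for plots. In a test on simulated data, 0 of 2000 intervals differed from a base-by-base count. Windows, thresholds, peak widths and list scaling were varied as alternatives. The 10 genes and the lists were chosen with earlier results of these data known. The text names all 10 genes, the 3 most covered genes of each other list, and the 3 genes most like each of the 3 most covered members. Klf15 and the pairs set side by side by CpG ratio were chosen after their values were seen. One gene of the B-cell list is not reported here.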

Additional observations from a re-analysis of the deposited data

Results flagged for a closer look

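At Klf14, the low-dose lines and the high-dose lines lay on opposite sides of the parental line in covered bases. The difference from the parental line was 300 bp for R100, 350 for R500, -200 for R1000 and -100 for R4000. With 1 list per line this difference was not tested. The pattern held from the TSS to the gene end (300, 590, 340, 190 and 40 bp from the parental line to R4000), where Klf14 was lost in R4000. It did not hold with the other peaks and windows. With peaks within 1000 bp joined, every resistant line lay below the parental line (3900, 2340, 2690, 2250 and 700 bp). With peaks at least 500 bp wide (0, 500, 500, 0 and 500 bp), Klf14 was gained in R100, R500 and R4000. In bp per Mb of list the lines were ordered otherwise, with 490 for the parental line, 218 for R100, 254 for R500, 372 for R1000 and 652 for R4000, so that R4000 lay above the parental line and the other 3 below it.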

How the results depend on the processing

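No paired analysis was possible because each line has 1 peak list, and for the same reason no list could be left out within a line. The depth of the libraries is unknown, and so is how much of each difference follows from it. Sums over the 10 genes and counts of covered genes are given in the order parental, R100, R500, R1000 and R4000. Counts that are not given equalled the reported ones. Peaks at least 500 bp wide gave 500, 2100, 1950, 0 and 500 bp, with 1, 2, 3, 0 and 1 genes covered. With these peaks, 2 genes were gained in R500, 1 was gained in R4000 and 1 was lost in R100. The 6820 widest peaks of each list gave 2800, 3050, 3600, 1700 and 1400 bp, with 3, 3, 4, 3 and 3 genes covered. Here 1 gene was gained and 1 lost in R100, and 2 were gained in R500. In the 2 kb either side of a TSS the sums were 1900, 3704, 3573, 1650 and 1100 bp, with 0 genes lost in R1000. In the upstream 5 kb alone the sums were 1150, 1360, 1460, 860 and 760 bp, with 2, 2, 3, 2 and 1 genes covered. There, 0 and 1 genes were gained in R100 and R500, and 0 were lost in R1000. From the TSS to the gene end the sums were 1750, 2890, 3390, 940 and 640 bp, with 3, 4, 5, 3 and 2 genes covered. In this window 1 gene was lost in R100 and 2 in R4000. Peaks joined within 1000 bp gave 8350, 8890, 11340, 6200 and 3050 bp, with 3, 4, 6, 3 and 3 genes covered. After joining, 1 gene was gained in R100 and 4 in R500, and 0 were lost in R1000 and 2 in R4000. In each of these settings R500 or R100 had the largest sum, and R4000 or R1000 the smallest. A threshold of 50 bp gave 3, 4, 6, 4 and 3 genes covered, with 4 gained in R500 and 1 in R1000. A threshold of 500 bp gave 2, 3, 3, 2 and 1 genes covered, with 1 gained in each of R100 and R500. A fold of 1.5 gave 1 lost in R100, and a fold of 3 gave 0 lost in R1000. Scaling to the length of each list gave 1 gained in each of R100 and R500, and 2 and 1 lost in them. The cause of these changes was not tested. Of 120 values of single genes under other peaks or windows whose reported value was above 0 bp, 28 were equal to it, 75 lower and 17 higher. The 180 values reported as 0 bp stayed at 0. Only the joining of peaks could raise a value, because each other setting kept a part of the peaks or of the window. Over all genes of the annotation, the share covered was lower than over protein-coding genes, at 5.82% in the parental line and 15.8% in R100.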

Other observations

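The label of the cells was looked at through B-cell identity genes, which a B-cell line would express. Cd79a, Cd79b, Pax5 and Ebf1 had 0 bp covered in the parental line. Cd79b, a signalling chain of the B-cell receptor, had 1000 bp for R100, 150 for R500, 150 for R1000 and 0 for R4000. Ebf1, a factor of early B cells, had 900, 350, 0 and 100 bp in the same order. Its window is 395775 bp long, and 0.227% of it was covered in R100. Pax5 had at most 50 bp in any line, and Cd79a had 0 bp in every line. Transcripts were not analysed here, so the peaks alone do not check the cell type.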
